A study of Homo sapiens with 8 samples.

Results

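The genes described here encode the proteins of the mitochondrial ribosome, the particle that translates the messages of mitochondrial DNA. They were chosen by symbol, as MRPL or MRPS followed by a number and at most 1 letter from A to C, with a mean of at least 1 CPM, the count scaled to a fixed library size, over all 8 libraries. Of 57992 genes in the count table, 78 carried such a symbol and 77 reached that level, 49 of them MRPL and 28 MRPS. MRPS24 alone missed it, with a mean of 0.449 CPM, while MRPL53 at 1.56 CPM and MRPL38 at 1.70 CPM were the lowest members inside. The samples were cultures of KG1A and U937, 2 human acute myeloid leukaemia lines grown in RPMI medium with dialyzed serum. The groups were KG1A in 10 mM dG, KG1A in PBS, U937 in 10 mM dG and U937 in PBS, with 2 libraries each. PBS was the vehicle. The agent is named only dG in the labels, and the length of the treatment is not given in the sources used here. Each line stands for the cells of 1 patient kept in culture, so a difference between KG1A and U937 is one between 2 lines.

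Mitochondrial ribosomes make only membrane proteins of the respiratory chain and of ATP synthase, from messages that mitochondrial DNA encodes. Their 2 ribosomal RNAs also come from mitochondrial DNA, but every protein of the particle is encoded in the nucleus, made in the cytosol and imported. The large subunit (mostly MRPL proteins) joins amino acids and guides the chain through an exit tunnel to the inner membrane. The small subunit (mostly MRPS proteins) binds the message and decodes it. Many of the proteins have a bacterial counterpart, and the others are particular to mitochondria. Leukaemic myeloid cells are known for their reliance on mitochondrial translation and respiration.

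The promoters of 6 members are shown because the results turn on these genes or because they carry the motifs searched. MRPL1 and MRPS9 fell far in U937, MRPL55 rose in U937, MRPS10 differed most between the lines, and MRPL3 and MRPL36 hold motifs that the other promoters shown lack. The 6 were chosen after their values were seen. Each window holds 120 bases before and 30 bases from the RefSeq transcript start, 150 bases in all, on the strand of the gene in GRCh38.p14. Capitals mark a match on either strand to 1 of 4 motifs. These were ACTTCCGG for the ETS family with GABPA, CACGTG for the E-box, and the longer motifs of NRF1 and YY1, which the capitals spell out in the windows of MRPS9 and MRPS10. No 2 of the matches shown overlap. The MRPS9 window (chr2:105037949-105038098, plus strand) holds an NRF1 motif, the MRPL3 window (chr3:131502942-131503091, minus strand) an ETS motif, and the MRPS10 window (chr6:42217832-42217981, minus strand) a YY1 motif. The MRPL36 window (chr5:1799808-1799957, minus strand) holds, in this order, an NRF1 motif, an E-box and a YY1 motif. The windows of MRPL1 (chr4:77862710-77862859, plus strand) and MRPL55 (chr1:228109270-228109419, minus strand) hold none of these letters.
MRPS9: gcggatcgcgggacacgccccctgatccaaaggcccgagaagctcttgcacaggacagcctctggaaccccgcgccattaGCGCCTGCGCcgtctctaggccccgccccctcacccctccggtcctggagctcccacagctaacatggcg
MRPL3: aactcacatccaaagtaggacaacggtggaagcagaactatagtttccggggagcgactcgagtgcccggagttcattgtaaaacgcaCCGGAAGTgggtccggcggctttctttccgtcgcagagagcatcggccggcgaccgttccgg
MRPL36: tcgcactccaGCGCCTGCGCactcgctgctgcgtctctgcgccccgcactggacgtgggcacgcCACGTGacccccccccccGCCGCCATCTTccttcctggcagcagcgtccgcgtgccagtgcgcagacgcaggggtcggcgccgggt
MRPS10: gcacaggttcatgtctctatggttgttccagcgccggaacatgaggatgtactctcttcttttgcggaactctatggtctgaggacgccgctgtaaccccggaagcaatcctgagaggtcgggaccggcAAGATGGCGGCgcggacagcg
MRPL1: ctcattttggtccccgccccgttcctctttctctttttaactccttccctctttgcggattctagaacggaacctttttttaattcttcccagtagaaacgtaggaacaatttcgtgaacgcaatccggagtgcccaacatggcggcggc
MRPL55: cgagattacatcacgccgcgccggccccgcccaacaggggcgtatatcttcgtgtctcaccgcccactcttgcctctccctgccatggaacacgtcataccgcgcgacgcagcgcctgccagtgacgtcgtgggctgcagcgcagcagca

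RefSeq promoters of 300 bases, 250 before and 50 from the start, were at hand for 68 of the 77 members, 84 promoters in all. MRPL2, MRPL10, MRPL13, MRPL15, MRPL21, MRPL23, MRPL35, MRPS28 and MRPS36 had none. The YY1 motif lay in 10.7% of the members' promoters and in 0.849% of all 35116 promoters. The ETS motif lay in 16.7% and 4.14%, the NRF1 motif in 11.9% and 5.78%, and the E-box in 10.7% and 7.26%. Of the 20552 promoters of protein-coding genes, 1.2% held the YY1 motif, 5.42% the ETS motif, 7.39% the NRF1 motif and 8.35% the E-box. Neither comparison set was limited to genes that reach the CPM minimum of the members, so the sets are unlike in this. At least 1 motif occurred in 32 of the 68 genes. The median log2 fold change in dG over promoters with a YY1 motif was -0.33 in KG1A and -0.53 in U937, beside -0.39 and -0.66 over those without. For the ETS motif the medians were -0.37 and -0.42 with it, beside -0.39 and -0.62 without it. For the NRF1 motif they were -0.43 and -0.69 with it, beside -0.38 and -0.54 without it. For the E-box they were -0.43 and -0.53 with it, beside -0.37 and -0.58 without it. The groups with and without the motif held 9 and 75 promoters for YY1 and for the E-box. They held 14 and 70 for ETS and 10 and 74 for NRF1. A gene with several promoters enters these medians several times, and some, such as MRPL34 for NRF1, stand in both groups. A match describes the letters in the window and is not a measured binding site.

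Library totals ran from 21053724 to 31135338 counts. Members had between 3 and 14245 counts in a library, and only MRPL53, MRPS28, MRPL38 and MRPS17 had fewer than 100 counts in at least 1 library. The line labels were met by their markers. CD34, an antigen of immature blood cells, averaged 0.560 and 0.265 CPM in U937 dG and PBS libraries, against 1189.9 and 931 CPM in KG1A. LYZ, the lysozyme of monocytes, averaged 222 and 23.7 CPM in U937 dG and PBS libraries and at most 0.0900 CPM in KG1A. Of 5 erythroid markers, none had a read in KG1A, and 8 fibroblast and epithelial markers summed to at most 4.61 CPM in any library. CD3D, a T cell receptor subunit, was transcribed in KG1A itself, at 102 CPM in dG and 94.9 CPM in PBS. Nothing in the labels ties the replicates to separate cultures, and a p-value here speaks only of the spread among these libraries, which may be technical. In RNA from a whole culture, fewer cells that express a gene and less RNA per cell cannot be told apart.

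Summed over the 77 members, the level of these messages was lower in dG in both lines. The sum was 3023 ± 36.3 CPM in KG1A dG libraries, against 3930.4 ± 59.8 CPM in KG1A PBS libraries (mean ± SD, n = 2 each), a change of -23.1%. In U937 it was 2818 ± 59.6 CPM in dG libraries, against 4091 ± 24.9 CPM in PBS libraries, a change of -31.1%. The deposited RPKM gave closer changes, -26.9% in KG1A and -28.1% in U937, and for MRPL alone -27.3% in KG1A and -25.9% in U937. Both dG libraries lay below both PBS libraries in either line, and the gap was many times the spread within a pair. With 2 libraries against 2, the smallest p that an exact permutation test allows is 0.333, so these sums carry no test.

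**Figure D1:**
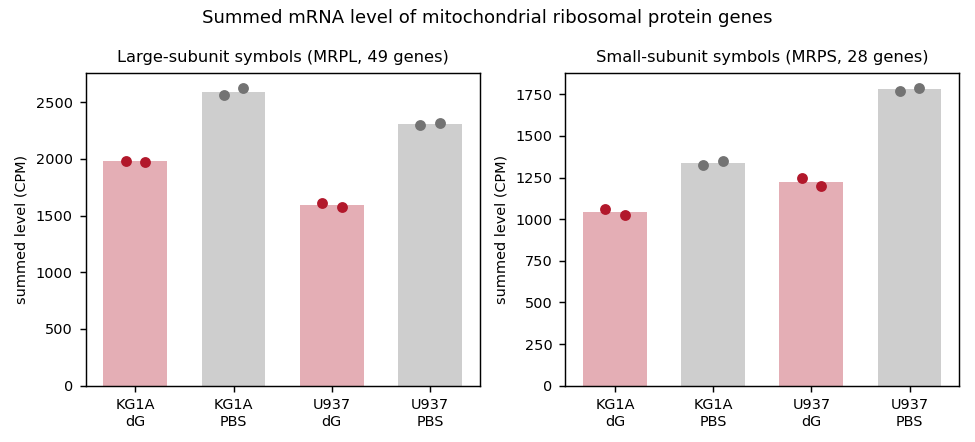
Summed level in CPM of the 49 MRPL members (left) and the 28 MRPS members (right) in each of the 8 libraries. Points are libraries and bars are means of 2. Both dG points lie below both PBS points in each line and in each symbol family.

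Both symbol families, MRPL and MRPS, were lower in dG, and the ratio of their sums differed little. The sums go by symbol and not by the subunit that holds the protein. The summed MRPL level was 1.87 and 1.92 times the summed MRPS level in KG1A dG libraries, against 1.94 and 1.95 times in KG1A PBS libraries. In U937 this ratio of CPM sums was 1.297 and 1.315 in dG libraries, against 1.297 and 1.299 in PBS libraries. MRPS10 alone made up 23.2% of the MRPS sum in both U937 dG libraries and 25.2% and 25.4% in U937 PBS libraries, against 2.61% to 2.75% in KG1A. Without MRPS10 the ratio was 1.69 and 1.71 in U937 dG libraries, 1.73 and 1.74 in U937 PBS libraries, and 1.92 to 2.00 in KG1A. RPKM is a level scaled to library size and to the total length of a gene's annotated exons. The members' summed RPKM was set against that of the proteins of the cytosolic ribosome, which translates all other messages. It came to 15.6% and 15.7% in KG1A dG libraries, against 19.8% and 19.7% in KG1A PBS libraries. The same share was 17.6% and 17.7% in U937 dG libraries, against 20.8% and 20.6% in U937 PBS libraries. In both lines the share was lower in each dG library than in each PBS library.

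In KG1A, dG lowered most of the messages by a modest amount and raised none past the test. Of the 77 members, 65 were lower and 0 higher at an adjusted p under 0.05, 42 of 49 MRPL and 23 of 28 MRPS (edgeR quasi-likelihood test, adjusted over all genes). Of all 18314 genes tested, 49.1% were called in this comparison, 19.6% as lower and 29.6% as higher. Among the 14832 tested genes that also reached a mean of 1 CPM, 56.7% were called, 23.1% as lower and 33.6% as higher. The median log2 fold change of the members was -0.39, beside 0.043 over all genes tested. Higher genes made up 60.2% of all calls in KG1A, but 50.8% when libraries were scaled by size alone and 50.3% with a filter at a mean of 1 CPM, while the members' count of higher calls stayed at 0. None of the members fell by as much as 2-fold, and 15 fell by more than 1.5-fold, beside 1.15% and 4.20% of all genes tested. Both dG libraries lay below both PBS libraries for 73 members, and above them for MRPL34 alone. The share of all genes tested that separate this way was not counted, so this count has no background beside it.

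Among MRPL members the largest falls in KG1A were in MRPL11 and MRPL12, proteins of the stalk and its base, where translation factors dock. MRPL11 had 63.2 and 63.8 CPM in the KG1A dG libraries, against 117 and 122 CPM in the KG1A PBS libraries. The log2 fold change, with its SE after ±, was -0.91 ± 0.046 (adjusted p = 1.06e-18). MRPL12, the stalk protein that recruits elongation factors, had 11.3 and 10.8 CPM in the KG1A dG libraries, against 21.6 and 19.4 CPM in the KG1A PBS libraries, a log2 fold change of -0.88 ± 0.086 (adjusted p = 5.18e-11). In the annotation 68.2% of the exon bases of MRPL12 are shared with AC139530.2 on the same strand, which was not tested here, so its counts are uncertain. MRPL10, which holds the stalk to the ribosome, had 28.2 and 26.5 CPM in the KG1A dG libraries, against 27.7 and 29.3 CPM in the KG1A PBS libraries. Its pairs of libraries overlapped and it did not pass the test, at -0.064 ± 0.066 (adjusted p = 0.459).

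MRPL20, whose bacterial counterpart binds the large ribosomal RNA early in assembly, had 38.0 and 36.6 CPM in the KG1A dG libraries, against 68.0 and 66.8 CPM in the KG1A PBS libraries. Its log2 fold change was -0.85 ± 0.053 (adjusted p = 3.48e-16). MRPL40, a protein particular to mitochondria, averaged 10.0 CPM in KG1A dG libraries and 17.4 CPM in KG1A PBS libraries, a change of -0.80 ± 0.10 (adjusted p = 2.42e-08). MRPL36, a small RNA-binding protein whose promoter is shown above, fell by 0.68 on the log2 scale (adjusted p = 1.51e-08). MRPL3, which reaches towards the site of peptide bond formation, had 102 and 97.6 CPM in the KG1A dG libraries, against 156 and 154 CPM in the KG1A PBS libraries. It fell in both libraries, by 0.63 on the log2 scale with an SE of 0.039.

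In the small subunit of KG1A, MRPS28 had 5.76 and 4.72 CPM in the KG1A dG libraries, against 9.83 and 9.84 CPM in the KG1A PBS libraries, a log2 fold change of -0.90 ± 0.12 (adjusted p = 4.63e-08). Exons of MRPS28 share 35.8% of their bases with AC036214.3, which limits how firmly its counts can be assigned. MRPS7, a protein of the head of the subunit, had 40.1 and 36.3 CPM in the KG1A dG libraries, against 69.0 CPM in both KG1A PBS libraries, a change of -0.85 ± 0.055 (adjusted p = 1.37e-15). MRPS9, whose tail reaches the transfer RNA in the bacterial ribosome, had 30.9 and 30.5 CPM in the KG1A dG libraries, against 51.0 and 49.9 CPM in the KG1A PBS libraries, a change of -0.72 ± 0.055 (adjusted p = 1.19e-13). All 3 genes were picked among members whose dG libraries lay below their PBS libraries. MRPS17 changed by -0.66 ± 0.11 (adjusted p = 6.98e-06) and MRPS12, a protein of the decoding centre, by -0.60 ± 0.081 (adjusted p = 6.9e-08).

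The 12 members without a call in KG1A were MRPL10, MRPL32, MRPL33, MRPL34, MRPL38, MRPL41, MRPL55, MRPS5, MRPS6, MRPS25, MRPS30 and MRPS31. Their log2 fold changes ran from -0.24 for MRPL55 to 0.33 for MRPL38, where the SE was 0.27. Of these, MRPL33, MRPL55, MRPS5, MRPS6, MRPS25, MRPS30 and MRPS31 passed as lower when libraries were scaled by size alone (adjusted p = 0.00350 to 0.0368), which made 72 members lower in KG1A. The same 7 passed without U937 dG replicate 1 or without U937 dG replicate 2, which enter the KG1A comparison only through scaling, filtering and spread.

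In U937 most members were lower too, and a small group of them was higher. Of the 77 members, 63 were lower and 6 higher, with 39 lower and 5 higher among 49 MRPL and 24 lower and 1 higher among 28 MRPS. Of all genes tested, 64% were called in U937, 31.5% as lower and 32.4% as higher. Among tested genes with a mean of at least 1 CPM, 71.3% were called, 35.7% as lower and 35.6% as higher. The median log2 fold change of the members was -0.66, beside 0.00 over all genes tested. In U937, 39 members fell by more than 1.5-fold and 15 by more than 2-fold, beside 16.0% and 7.74% of all genes tested. Both dG libraries lay below both PBS libraries for 64 members and above them for 8, again without a count over all genes.

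MRPL1, the protein of the stalk through which spent transfer RNA leaves the ribosome, fell furthest. It had 5.77 and 5.04 CPM in the U937 dG libraries, against 24.7 and 26.0 CPM in the U937 PBS libraries. The log2 fold change was -2.22 ± 0.094 (adjusted p = 1.62e-21). In KG1A MRPL1 had 36.5 and 39.4 CPM in the KG1A dG libraries, against 49.7 and 48.0 CPM in the KG1A PBS libraries, a change of -0.37 ± 0.058 (adjusted p = 1.55e-06). MRPL24, which lies at the opening of the exit tunnel in bacteria, had 19.3 and 18.6 CPM in the U937 dG libraries, against 52.8 and 53.7 CPM in the U937 PBS libraries, a change of -1.49 ± 0.064 (adjusted p = 2.65e-21). MRPL45, which anchors the ribosome to the inner membrane, had 16.2 and 15.8 CPM in the U937 dG libraries, against 36.8 and 34.8 CPM in the U937 PBS libraries, a change of -1.17 ± 0.070 (adjusted p = 3.91e-17). Both tunnel-side genes were more than 2-fold lower.

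MRPL53 came next in size, but on very few reads. Its counts were 5 and 3 in U937 dG libraries, against 28 and 12 in U937 PBS libraries, a log2 fold change of -1.91 ± 0.50 (adjusted p = 0.00104). Without U937 PBS replicate 1 the change was -1.37 and the call ended (adjusted p = 0.0645). In KG1A it changed by -0.50 ± 0.19 (adjusted p = 0.0283), a call that ended without PBS replicate 1, PBS replicate 2 or dG replicate 2 (adjusted p = 0.0858, 0.0985 and 0.176). Its exons share 45.2% of their bases with CCDC142 on the same strand.

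The stalk genes of KG1A fell in U937 too. MRPL12 had 6.07 and 6.30 CPM in the U937 dG libraries, against 13.6 and 14.0 CPM in the U937 PBS libraries, a change of -1.16 ± 0.11 (adjusted p = 4.73e-12), and MRPL11 had 27.8 and 25.1 CPM in the U937 dG libraries, against 43.4 and 42.4 CPM in the U937 PBS libraries, a change of -0.70 ± 0.060 (adjusted p = 8.25e-13). MRPL20 changed by -1.14 ± 0.064 (adjusted p = 5.67e-18). MRPL3 changed by -0.98 ± 0.042 (adjusted p = 2.55e-21) in U937 and MRPL36 by -0.53 ± 0.10 (adjusted p = 1.52e-05).

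In the small subunit of U937, MRPS9 had 25.6 and 26.8 CPM in the U937 dG libraries, against 73.4 and 76.2 CPM in the U937 PBS libraries, a log2 fold change of -1.51 ± 0.055 (adjusted p = 1.5e-23). MRPS27, a protein with the repeats of an RNA-binding family, had 36.2 and 34.3 CPM in the U937 dG libraries, against 91.3 and 88.9 CPM in the U937 PBS libraries, a change of -1.35 ± 0.050 (adjusted p = 2.68e-23). Both genes were more than 2-fold lower, with at least 1913 counts in every PBS library of U937. MRPS17 had 2.28 and 2.33 CPM in the U937 dG libraries, against 6.77 and 7.29 CPM in the U937 PBS libraries, a change of -1.60 ± 0.16 (adjusted p = 4.14e-11), and MRPS28 had 1.16 and 1.41 CPM in the U937 dG libraries, against 3.86 and 3.66 CPM in the U937 PBS libraries, a change of -1.56 ± 0.20 (adjusted p = 2.37e-08). Exons of MRPS17 share 21.8% of their bases with AC092647.5. Both genes are low in U937, with 27 and 29 counts for MRPS28 in U937 dG libraries, against 123 and 92 in U937 PBS libraries. MRPS7 changed by -0.89 ± 0.068 (adjusted p = 3.25e-14) and MRPS12 by -0.84 ± 0.091 (adjusted p = 2.99e-10).

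The 6 members that rose in U937 were MRPL38, MRPL55, MRPL33, MRPL34, MRPL41 and MRPS6. MRPS6 had 83.6 and 81.7 CPM in the U937 dG libraries, against 47.4 CPM in both U937 PBS libraries, a log2 fold change of 0.80 ± 0.048 (adjusted p = 4.06e-17). SLC5A3, a transporter of myo-inositol on the same strand in the MRPS6 locus, shares 6.35% of the exon bases of MRPS6 and changed by 1.23 ± 0.047 in U937 and by 0.31 ± 0.050 in KG1A. Whether reads of SLC5A3 were counted for MRPS6 was not tested. MRPL55 had 27.96 and 27.7 CPM in the U937 dG libraries, against 17.7 and 18.5 CPM in the U937 PBS libraries, a change of 0.62 ± 0.074 (adjusted p = 3.11e-09). MRPL38 had 2.46 and 3.10 CPM in the U937 dG libraries, against 1.47 and 1.23 CPM in the U937 PBS libraries, a change of 1.01 ± 0.23 (adjusted p = 0.00021) at the lowest mean RPKM of all members. Its exons share 37.5% of their bases with AC087289.3. All 3 were picked among members without overlap between dG and PBS libraries.

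The other 3 rises were small. MRPL33 changed by 0.33 ± 0.058 (adjusted p = 3.72e-06), MRPL34 by 0.29 ± 0.050 (adjusted p = 3.21e-06) and MRPL41 by 0.20 ± 0.086 (adjusted p = 0.0434). MRPL33 and MRPL34 are short proteins that bind the ribosomal RNA. MRPL34 shares 13.2% of its exon bases with ABHD8 on the opposite strand, which changed by 1.23 ± 0.096 in U937 and 0.56 ± 0.10 in KG1A. MRPL33 shares 21.1% with BABAM2 on the same strand, which changed by -1.13 ± 0.063 in U937 and -0.16 ± 0.067 in KG1A. Whether reads of these genes were counted for the members was not tested. MRPL33, MRPL34 and MRPL41 did not pass a test against a fold of 1.2 (adjusted p = 0.0748, 0.21 and 0.694). The call on MRPL41 also ended when libraries were scaled by size alone (adjusted p = 0.21). It ended with the replicate block too (adjusted p = 0.0548), and without KG1A PBS replicate 1 or 2, U937 dG replicate 1 or U937 PBS replicate 1 or 2 (adjusted p = 0.0512 to 0.167). MRPL44, MRPL49 and MRPS30 were called higher as well, making 9 in all, under relative log expression (RLE) scaling in edgeR (adjusted p = 0.0296, 0.00666 and 0.0121). RLE is the scaling method of DESeq2. In the fit by DESeq2 itself, only MRPL49 of these was called higher (adjusted p = 0.0214).

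The 8 members without a call in U937 were MRPL18, MRPL44, MRPL46, MRPL49, MRPL52, MRPS18C, MRPS30 and MRPS36, with log2 fold changes from -0.16 for MRPS36 to 0.10 for MRPL49. Without U937 dG replicate 1, MRPS36 passed as lower (-0.25, adjusted p = 0.0391) and MRPL49 as higher (0.25, adjusted p = 0.00436).

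**Figure D2:**
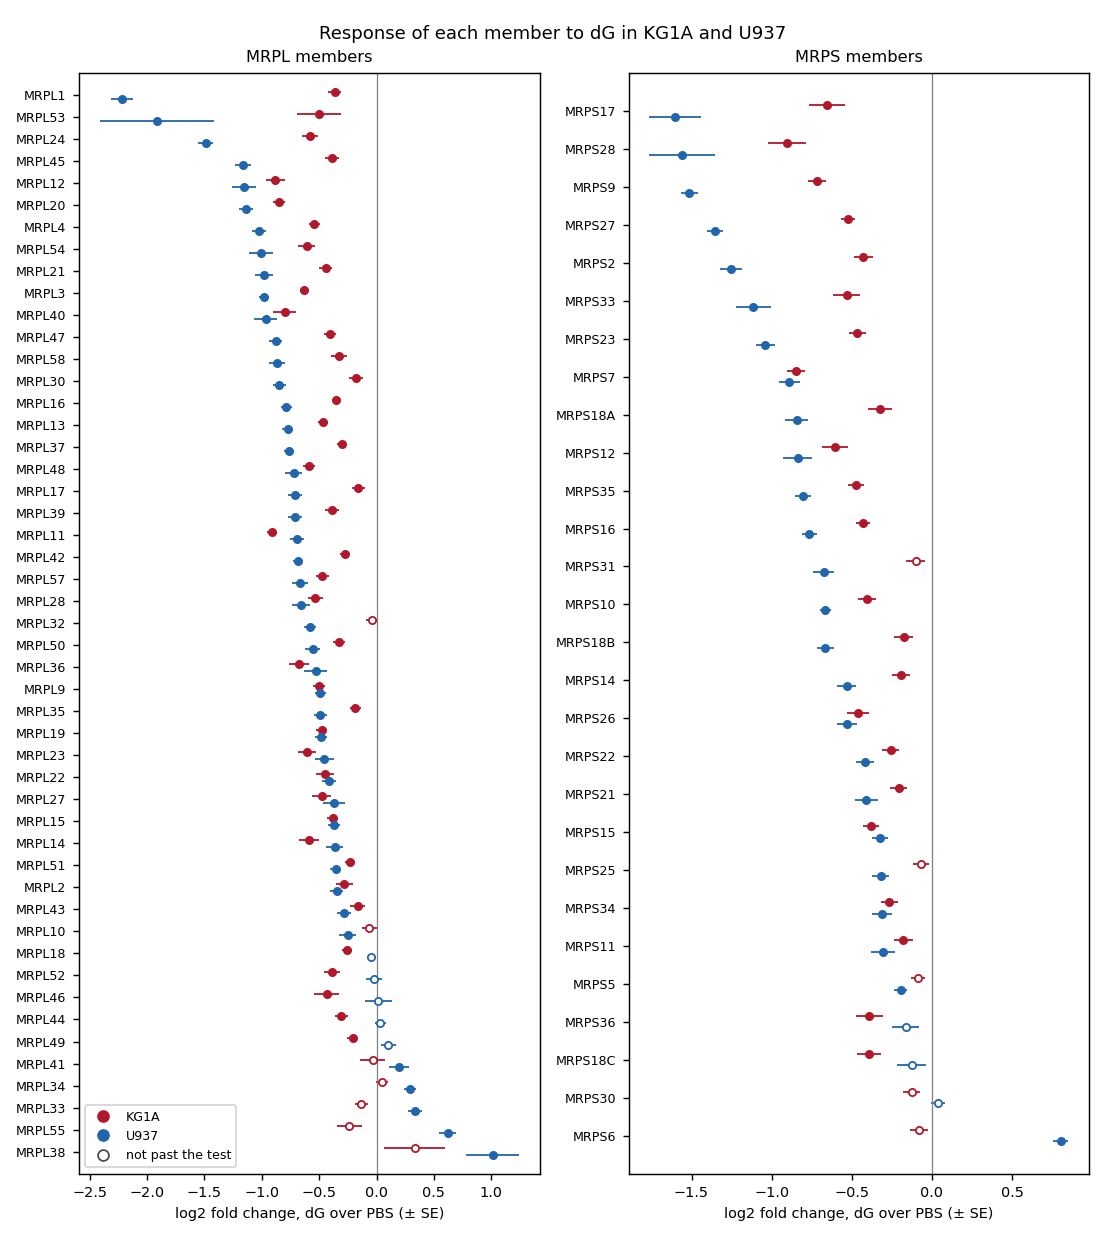
Log2 fold change of each member, dG over PBS, in KG1A (red) and U937 (blue), with MRPL members left and MRPS members right, ordered by the U937 value. Bars are SE from the fit with 2 libraries per group and open points did not pass the test; most points of both lines lie left of 0, and MRPL38, MRPL55, MRPL33, MRPL34, MRPL41 and MRPS6 lie right of it with filled U937 points.

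Of the 77 members, 58 were lower in both lines, 7 were lower in KG1A only by call and 5 in U937 only by call, and no member was called in opposite directions. The KG1A and U937 changes of the members correlated across the 77 genes with a Pearson r of 0.62 and a Spearman rho of 0.62, as a description over genes that share the same 8 libraries. The difference between the lines was tested itself, as the U937 effect minus the KG1A effect. It was negative past the test for 36 members and positive for 10, beside 44.1% of all genes called in this contrast, 26.4% negative and 17.6% positive. Among genes with a mean of at least 1 CPM, 51.9% were called, 31% negative and 20.9% positive. The median difference of the members was -0.20, beside -0.098 over all genes tested. The split depends on the scaling. It was 15 positive and 30 negative with RLE scaling in edgeR and 19 and 26 with a filter at a mean of 1 CPM. These settings shifted the median of all genes by 0.098 and 0.15. Over all genes tested, positive differences made up 40.0% of the calls, against 50.8% and 56.1% under these settings. Without U937 dG replicate 2 it was 17 positive and 25 negative. The members' median difference was -0.10 with RLE scaling in edgeR, -0.055 with the filter at 1 CPM and -0.12 without U937 dG replicate 1. Without U937 dG replicate 2 it was -0.019, beside 0.018 over all genes. With limma on log2 RPKM it was -0.057 with a pseudocount of 1 and -0.076 with one of 0.1, and with no filter it was -0.073.

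By symbol, 21 MRPL members had a more negative and 9 a more positive effect in U937, and among MRPS members the counts were 15 and 1. The largest negative differences that passed were those of MRPL1 (-1.85 ± 0.11, adjusted p = 4.04e-16), MRPL53 (-1.41 ± 0.55, adjusted p = 0.0356) and MRPS17 (-0.95 ± 0.20, adjusted p = 0.000175). MRPL53 lost this call in 5 of the 8 fits that left out 1 library, all but those without KG1A PBS replicate 1, KG1A dG replicate 2 or U937 PBS replicate 2, with adjusted p up to 0.333 and a value of -0.87 without U937 PBS replicate 1. MRPL53 also lost it under DESeq2, RLE scaling in edgeR, both other filters, the fold test and both RPKM settings. At a pseudocount of 1 the value was -0.0053 (limma, adjusted p = 0.979). The largest positive differences among members that passed were those of MRPS6 (0.89 ± 0.073, adjusted p = 1.16e-12), MRPL55 (0.86 ± 0.13, adjusted p = 7.26e-07) and MRPL33 (0.47 ± 0.081, adjusted p = 8.73e-06). MRPL38 had a difference of 0.68 ± 0.35 (adjusted p = 0.123) without a call, and passed in 4 alternatives (adjusted p = 0.0374 to 0.0488). MRPS9 and MRPS27 differed by -0.80 ± 0.079 (adjusted p = 9.91e-11) and -0.83 ± 0.066 (adjusted p = 4.3e-13). MRPL11 was a reverse case among the genes that fell far, with a difference of 0.21 ± 0.076 (adjusted p = 0.0205) that ended without KG1A PBS replicate 2 or without U937 PBS replicate 2. For MRPS7, lower in both lines, the difference did not pass, at -0.040 ± 0.088 (adjusted p = 0.787).

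**Figure D3:**
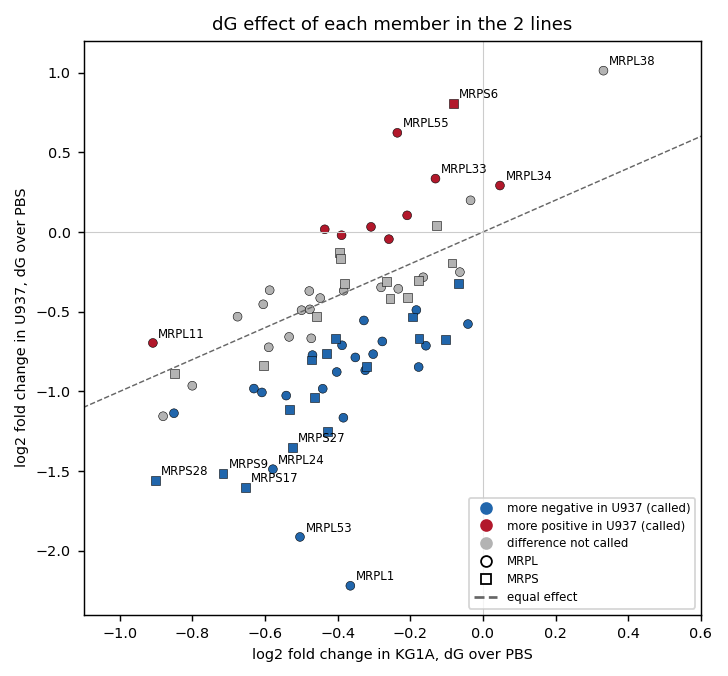
Log2 fold change of each member in dG over PBS, U937 on the vertical and KG1A on the horizontal axis, with circles for MRPL and squares for MRPS. Blue points had a more negative and red points a more positive effect in U937 past the test, grey points had no call, and the dashed line marks equal effects; MRPL1 lies furthest below the line, and MRPS6 and MRPL55 lie far above it.

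The lines also started from different levels, as they did for most genes. In PBS, 26 members were higher and 40 lower in U937 than in KG1A, while 82.3% of all genes tested differed between the lines, 41.4% as higher and 40.8% as lower in U937. Among genes with a mean of at least 1 CPM, 86.3% differed, 43.2% in either direction. The 77 members, of which 11 were not called, differed about as often as such genes. MRPS10, a protein of the head of the small subunit, stood far apart from every other member. It had 447 and 454 CPM in U937 PBS libraries, against 36.5 and 36.9 CPM in KG1A PBS libraries, a log2 difference of 3.62 ± 0.042 (adjusted p = 2.84e-40). Per length it was the most abundant member in U937, at 138 RPKM in dG and 210.3 RPKM in PBS, against 12.7 and 17.7 RPKM in KG1A dG and PBS. It still fell in dG in both lines. It had 289 and 278 CPM in the U937 dG libraries, against 447 and 454 CPM in the U937 PBS libraries, a change of -0.67 ± 0.034 (adjusted p = 2.77e-19), and in KG1A it changed by -0.41 ± 0.055 (adjusted p = 6.9e-08).

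MRPL2, a protein near the site of peptide bond formation, and MRPS30 were the next members higher in U937 in PBS, by 1.35 ± 0.064 (adjusted p = 9.05e-21) and 1.22 ± 0.048 (adjusted p = 3.3e-23) on the log2 scale. MRPL53 (-2.15 ± 0.24, adjusted p = 4.12e-10), MRPL49 (-1.76 ± 0.052, adjusted p = 3.08e-27) and MRPL48 (-1.48 ± 0.056, adjusted p = 1.01e-23) were furthest below their KG1A level. Per length, the highest MRPL members over all libraries were MRPL18, MRPL15 and MRPL51. MRPL18, which binds the smallest ribosomal RNA in bacteria, had 42.0 and 52.7 RPKM in KG1A dG and PBS and 81.1 and 80.3 RPKM in U937 dG and PBS. After MRPS10, MRPS34 and MRPS35 were the highest MRPS members. MRPL38 and MRPL46 were lowest among MRPL, with 0.974 and 1.39 RPKM for MRPL46 in KG1A dG and PBS, and MRPS33 and MRPS28 were lowest among MRPS. The median over the members was 12.7 RPKM in KG1A dG and 17.6 in KG1A PBS, and 10.7 RPKM in U937 dG and 14.6 in U937 PBS.

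**Figure D4:**
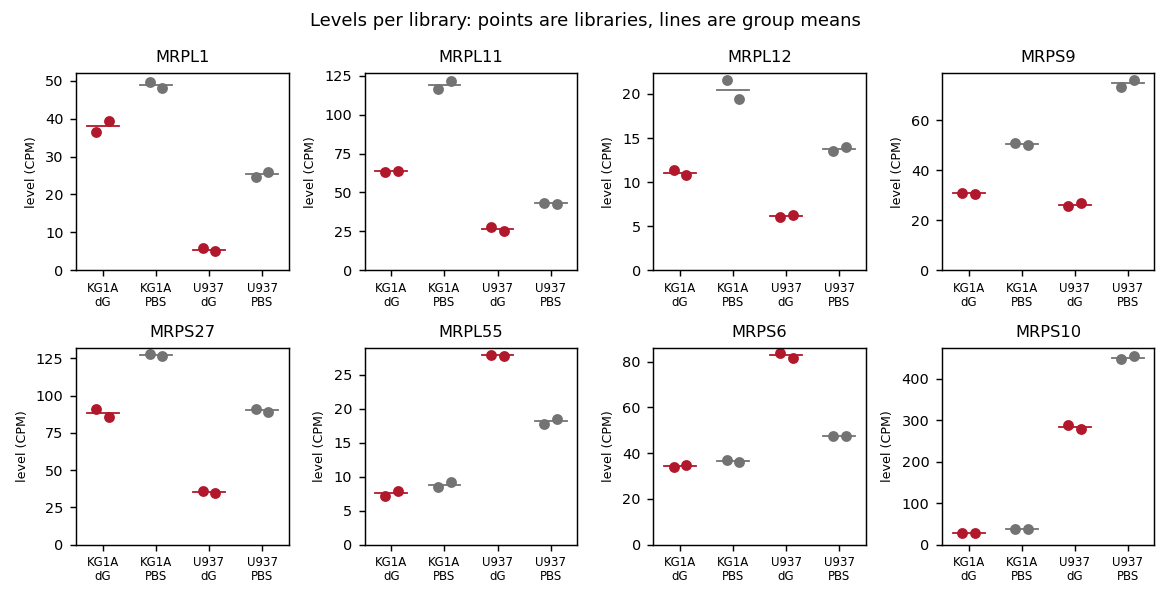
Level in CPM of 8 members in each library, with points for libraries and lines for means of 2. Of these 8, MRPL1 and MRPS9 are lowered most in U937, MRPL11 and MRPL12 are lower in dG in both lines, MRPL55 and MRPS6 are higher in U937 dG, and MRPS10 stands at 447 and 454 CPM in U937 PBS libraries.

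Some symbols do not name the subunit that holds the protein. MRPS18 has 3 copies in mammals. MRPS18C, the copy closest to the bacterial protein, fell in KG1A by 0.39 on the log2 scale (adjusted p = 3.4e-05) and did not pass in U937, at -0.13 ± 0.089 (adjusted p = 0.221). MRPS18B, also of the small subunit, changed by -0.18 ± 0.058 (adjusted p = 0.0109) in KG1A, a call that ended without PBS replicate 2 or dG replicate 2, and by -0.67 ± 0.053 (adjusted p = 1.35e-13) in U937. MRPS18A sits in the large subunit and changed by -0.32 ± 0.074 (adjusted p = 0.000385) in KG1A and by -0.84 ± 0.071 (adjusted p = 4.81e-13) in U937. Exons of MRPS18C share 40.2% of their bases with ABRAXAS1 on the opposite strand, which changed by 0.19 ± 0.057 in KG1A and -1.68 ± 0.063 in U937. Those of MRPS18A share 47.0% with RSPH9 on the opposite strand, which was not tested here. How far such reads enter the counts is not known.

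MRPS30 is likewise found in the large subunit. It had 90.8 and 90.0 CPM in the U937 dG libraries, against 88.8 and 87.2 CPM in the U937 PBS libraries, and its change of 0.038 ± 0.044 (adjusted p = 0.469) did not pass although both dG libraries lay above both PBS libraries. MRPL58, a peptidyl-tRNA hydrolase that became part of the large subunit, changed by -0.32 ± 0.070 (adjusted p = 0.000157) in KG1A and by -0.87 ± 0.072 (adjusted p = 3.14e-13) in U937. MRPS36 is now known as a part of the 2-oxoglutarate dehydrogenase complex rather than of the ribosome. It changed by -0.39 ± 0.085 (adjusted p = 0.000188) in KG1A and by -0.16 ± 0.083 (adjusted p = 0.0849) in U937. Grouped by the subunit of the protein, 43 of 51 large-subunit and 21 of 25 small-subunit members were lower in KG1A, and 40 and 23 were lower in U937, where 5 and 1 were higher.

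Members with a bacterial counterpart and members particular to mitochondria were both mostly lower. Of 45 with a counterpart, 38 were lower in KG1A, with a median of -0.43, and 39 were lower and 4 higher in U937, with a median of -0.58. Of 31 particular to mitochondria, 26 were lower in KG1A, with a median of -0.32, and 24 were lower and 2 higher in U937, with a median of -0.67.

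Members whose exons lie apart from other genes were mostly lower too. In GENCODE 29, 37 members share no exon base with another gene on either strand. Of these 32 were lower in KG1A, and 31 were lower and 2 higher in U937. Of 25 members that share at least 10% of their exon bases, 21 were lower in KG1A, and 18 were lower and 3 higher in U937. Pseudogene symbols of the same families, 73 in number, together had 0.905% to 1.21% as many counts as the members, and how reads that match both were treated is not given in the sources used here. MRPS24, below the level for membership, had 6 to 24 counts in a library and shares 23.2% of its exon bases with the readthrough gene URGCP-MRPS24, and its change of -0.47 ± 0.49 (adjusted p = 0.455) in KG1A and -0.65 ± 0.43 (adjusted p = 0.184) in U937 did not pass.

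The head-to-head neighbours of members went both ways. A gene starting within 1000 bases on the opposite strand was found for 17 members, 22.1%, beside 7.37% of 19708 protein-coding genes. The latter were not limited to genes that reach the CPM minimum of the members. Of 14 tested neighbours that are no members themselves, 6 were higher and 4 lower in KG1A, and 7 were higher and 5 lower in U937. Of all genes tested, 29.6% were higher and 19.6% lower in KG1A, and 32.4% higher and 31.5% lower in U937. With 14 genes, no departure from these shares is claimed.

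Other genes of mitochondrial translation were more often called lower than higher in dG. Over all genes tested, 19.6% were called lower and 29.6% higher in KG1A, and 31.5% lower and 32.4% higher in U937. Each list below is to be read beside these shares. Of 27 genes that assemble the mitochondrial ribosome or modify its RNA, 15 were lower and 0 higher in KG1A, and 23 were lower and 1 higher in U937. The medians were -0.24 and -0.78. MRM1, a methyltransferase of the large ribosomal RNA, averaged 1.51 CPM in U937 dG libraries and 7.001 CPM in U937 PBS libraries, a change of -2.22 ± 0.18 (adjusted p = 1.52e-13), and changed by -0.82 ± 0.14 (adjusted p = 6.9e-06) in KG1A. C1QBP, an RNA-binding matrix protein, averaged 56.7 CPM in U937 dG libraries and 186 CPM in U937 PBS libraries, a change of -1.71 ± 0.043 (adjusted p = 1.79e-28), and changed by -0.79 ± 0.044 (adjusted p = 2.53e-17) in KG1A. TRUB2, a pseudouridine synthase, changed by -1.58 ± 0.091 (adjusted p = 1.19e-17) in U937 and by -0.78 ± 0.065 (adjusted p = 1.28e-12) in KG1A. The higher gene in U937 was METTL17, at 0.31 ± 0.052 (adjusted p = 2.1e-06); it and the other single risers of these lists were named after their values were seen.

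Of 17 translation factors and message-binding proteins, 9 were lower and 2 higher in KG1A, and 13 were lower and 1 higher in U937. The medians were -0.30 and -0.45. Beside this, 19.6% of all genes tested were lower in KG1A and 31.5% in U937. MTIF2, the initiation factor, and TUFM, the elongation factor that delivers transfer RNA, changed by -1.03 ± 0.049 (adjusted p = 4.53e-20) and -0.88 ± 0.044 (adjusted p = 2.33e-19) in U937. SLIRP, which binds mitochondrial messages, and MRRF, the recycling factor, led in KG1A at -0.60 ± 0.053 (adjusted p = 4.91e-12) and -0.48 ± 0.059 (adjusted p = 1.28e-08). The second initiation factor gene, MTIF3, was higher in KG1A at 0.35 ± 0.057 (adjusted p = 2.79e-06) and lower in U937 at -0.22 ± 0.070 (adjusted p = 0.00607). OXA1L, which inserts the new proteins into the inner membrane, was higher in both lines, at 0.11 ± 0.041 (adjusted p = 0.0268) in KG1A and 0.27 ± 0.039 (adjusted p = 2.43e-07) in U937.

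Of 20 genes that charge mitochondrial transfer RNA, 17 were lower and 0 higher in KG1A, and 16 were lower and 1 higher in U937. The medians were -0.35 and -0.68. Among all genes tested, 19.6% were lower in KG1A and 31.5% in U937. WARS2, for tryptophan, changed by -1.75 ± 0.079 (adjusted p = 9.58e-21) in U937 and by -0.74 ± 0.077 (adjusted p = 2.12e-10) in KG1A. HARS2, for histidine, was the higher gene in U937, at 0.31 ± 0.066 (adjusted p = 0.000109). Of 9 genes of mitochondrial transcription and genome upkeep, 7 were lower in either line, and POLG, the DNA polymerase, was higher in U937 at 0.37 ± 0.043 (adjusted p = 2.11e-09). The replicative helicase gene, listed in the file as C10orf2 and now called TWNK, averaged 4.98 CPM in U937 dG libraries and 28.02 CPM in U937 PBS libraries, a change of -2.50 ± 0.10 (adjusted p = 6.85e-23). In KG1A it changed by -0.42 ± 0.065 (adjusted p = 1.09e-06).

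**Figure D5:**
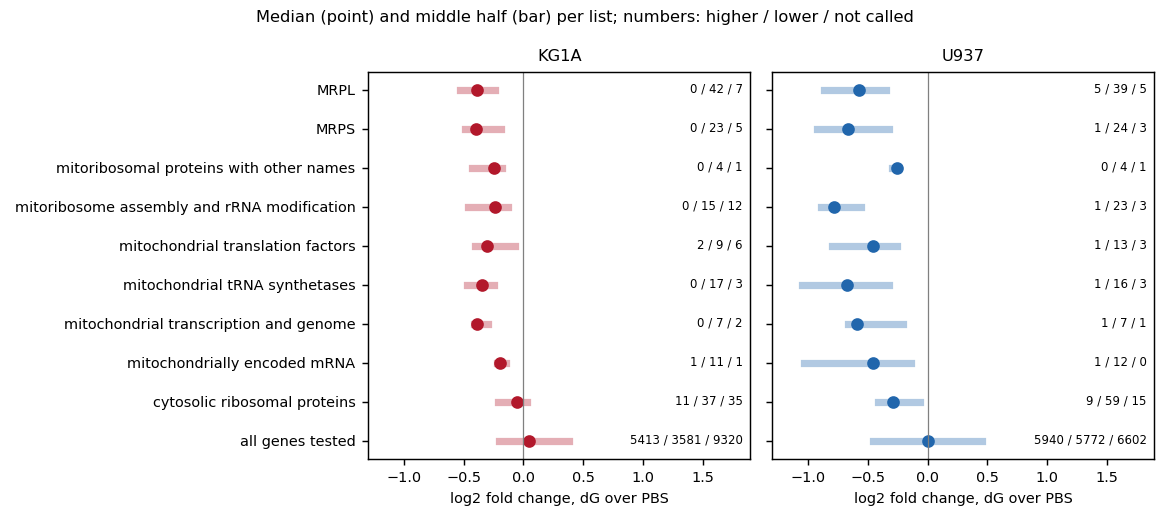
Median log2 fold change (points) and interquartile range over genes (bars), dG over PBS, for MRPL, MRPS, the other lists of mitochondrial translation, cytosolic ribosomal proteins and all genes tested, in KG1A (left) and U937 (right). Numbers give genes higher, lower and not called; the lists of mitochondrial translation lie left of 0 in both lines, while all genes tested lie at 0.043 and 0.00.

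Of 5 proteins of the mitochondrial ribosome that carry other names, 4 were lower in either line. GADD45GIP1, of the large subunit, changed by -0.56 ± 0.064 (adjusted p = 2.9e-09) in KG1A and by -1.07 ± 0.071 (adjusted p = 6.61e-16) in U937, and DAP3, of the small subunit, by -0.18 ± 0.039 (adjusted p = 0.000164) in KG1A and -0.26 ± 0.038 (adjusted p = 3.19e-07) in U937. The 13 messages of mitochondrial DNA, which these ribosomes translate, were lower in 11 cases in KG1A and 12 in U937. MT-CO1 was higher in KG1A at 0.11 ± 0.026 (adjusted p = 0.000415), and MT-ND5 was higher in U937 at 0.38 ± 0.029 (adjusted p = 3.1e-14) and did not pass in KG1A. Of the 2 ribosomal RNAs of the mitochondrial ribosome, neither was called in KG1A and 1 was lower in U937, in libraries made with a kit for messenger RNA. Of 83 cytosolic ribosomal protein genes, 37 were lower and 11 higher in KG1A, and 59 were lower and 9 higher in U937. The medians were -0.057 and -0.28. The shares over all genes tested were 19.6% lower and 29.6% higher in KG1A, and 31.5% lower and 32.4% higher in U937.

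Of 9 regulators of nuclear genes for mitochondria, 4 were lower in KG1A, and 6 were lower and 1 higher in U937. The shares over all genes tested were 19.6% lower in KG1A, and 31.5% lower and 32.4% higher in U937. With 9 genes, no departure from these shares is claimed. PPRC1, a coactivator of such genes, changed by -0.86 ± 0.052 (adjusted p = 7.9e-17) in U937 and by -0.31 ± 0.046 (adjusted p = 4.36e-07) in KG1A. NRF1, the factor whose motif is marked in the MRPS9 promoter, had 18.0 and 17.6 CPM in the U937 dG libraries, against 26.9 and 26.8 CPM in the U937 PBS libraries, a change of -0.59 ± 0.073 (adjusted p = 5.99e-09), and did not pass in KG1A at 0.13 ± 0.069 (adjusted p = 0.128). GABPA, an ETS factor, changed by -0.32 ± 0.053 (adjusted p = 1.89e-06) in U937 and by -0.12 ± 0.050 (adjusted p = 0.0362) in KG1A. YY1 was the higher gene in U937, at 0.10 ± 0.034 (adjusted p = 0.00849). MYC, a driver of growth genes, changed by -3.51 ± 0.048 in U937 and by -0.33 ± 0.032 in KG1A. The part of these regulators in the members' levels was not tested.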

How the data were processed

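RNA of KG1A and U937 was sequenced in 8 libraries, made with a Kapa mRNA kit per the labels' protocols. Per the submitters' processing notes, the authors used bcl2fastq 2.18.0.12, TopHat2 and HTSeq 0.11.2 with build hg38. They deposited counts per gene, whole numbers with no normalization. The deposited RPKM values equal the counts divided by the total exon length of the gene and by library size scaled with TMM factors, as recomputed from both tables. Strand and multi-mapping settings are not given in the sources used here.

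Counts were tested with edgeR 4.0.16 in R 4.3.3 (filterByExpr, TMM, quasi-likelihood test, 1 fit over 4 groups), leaving 18314 of 57992 genes with 4 residual degrees of freedom. The Benjamini-Hochberg adjustment covered every tested gene, calls were made under 0.05, and the test was run on simulated counts with known changes. In that run few genes changed, equally often up and down, so it does not probe the scaling. Alternatives were other scalings and filters, DESeq2 1.42.0, limma 3.58.1 on log2 RPKM, a fold of 1.2 and leaving out libraries. CPM are TMM-scaled, except in the membership rule. Members, lists and tests were chosen with earlier results of these data known. Genes were named as the largest changes per symbol family, line and list, the highest and lowest levels, and members of known role. Members named for the largest change in a line were picked among called ones without overlap of dG and PBS libraries. Their lack of overlap is thus no further support. MRPL3, MRPL10 and MRPL36 were added after their values were seen. Exons came from GENCODE 29 and promoters from RefSeq.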

Additional observations from a re-analysis of the deposited data

Results flagged for a closer look

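The effect of dG differed between the lines, by a test of the difference itself, for 36 members with a more negative and 10 with a more positive effect in U937 than in KG1A. Of all genes tested 44.1% were called in this contrast, and of genes with a mean of at least 1 CPM 31% were negative and 20.9% positive. The members split into 26 negative and 19 positive with a filter at 1 CPM, and into 25 and 17 without U937 dG replicate 2. The largest such differences past the test on the log2 scale, U937 effect minus KG1A effect, were -1.85 for MRPL1, -1.41 for MRPL53 and -0.95 for MRPS17 on the negative side. On the positive side they were 0.89 for MRPS6, 0.86 for MRPL55 and 0.47 for MRPL33. MRPL53 rests on 3 to 28 counts a library in U937, and its difference lost the call under most alternatives, with a value of -0.0053 in log2 RPKM with a pseudocount of 1. Groups of 2 libraries are too small for a search for libraries that stand apart.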

How the results depend on the processing

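Over the MRPL and MRPS genes named by rule, MRPS24 included, 2516 values under an alternative kept their side of the threshold. Of the others, 104 lost the call, 76 gained one and 0 were called in the opposite direction. A value without a call in either fit counts as kept even if its sign changed. A test against a fold of 1.2 left 41 members lower in KG1A, 3 higher in U937, and 3 positive and 22 negative differences between the lines. With limma on log2 RPKM the negative differences numbered 23 with a pseudocount of 1 and 23 with one of 0.1, and with a filter at a mean of 1 CPM the positive ones numbered 19. Leaving out each library in turn gave 59 to 72 members lower and 0 to 0 higher in KG1A, and 60 to 64 lower and 5 to 6 higher in U937. It gave 25 to 37 negative and 8 to 17 positive differences between the lines, and 24 to 27 members higher and 37 to 40 lower in U937 in PBS. Where 1 library was left in a group, it was assumed to vary like the other groups. Of the line markers, the difference in dG effect turned to -0.24 for CD34 with a pseudocount of 1, and to 1.15 and 0.92 for AZU1 with pseudocounts of 1 and 0.1; the cause was not tested.

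Replicate numbers are shared between groups, but same-numbered libraries did not deviate together, with correlations of -0.0956 in KG1A and 0.0283 in U937. With the replicate block 0 members were higher and 65 lower in KG1A, 5 higher and 63 lower in U937, and the differences numbered 10 positive and 36 negative. Depth limits MRPL53, MRPL38, MRPS28 and MRPS17, whose lowest libraries held fewer than 100 counts.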
